A study of Mus musculus with 16 samples.

Results

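The genes described are 4 coreceptor genes of the T cell surface that dendritic cells also transcribe: Cd8a, Cd8b1, Cd4 and Lag3. They were taken from the table of raw counts by gene name, as 4 of 24116 genes, and all 4 passed the filter on low counts among 13790 tested genes. They were chosen from their measured values in these libraries, so their levels and fold changes are given as a description with no test. RNA came from dendritic cells sorted from mouse spleen, in 16 libraries with 2 in each of 8 groups. CKO and WT libraries were made from each of 4 subsets, labelled Dec205, pDC, Esamlo and Esamhi, where pDC stands for plasmacytoid dendritic cells. The series design text describes the cells as deficient in Etv6, which encodes an ETS family repressor of transcription. The labels do not expand CKO. Neither the labels nor the design text name the Cre driver, the allele, the strain, the age, any pooling of animals or the gates of the sort, so whether antibodies to CD8 alpha or CD4 set the gates is not known. Whether both libraries of a group are separate animals is not said either, and p-values then measure only the spread between libraries, which may be technical.

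Cd8a and Cd8b1 encode the CD8 alpha and beta chains. T cells carry CD8 mostly as an alpha-beta dimer that binds MHC class I, while the CD8+ conventional dendritic cells of mouse spleen carry alpha-alpha dimers. Cd4 encodes the coreceptor that binds MHC class II. Lag3 is a CD4-related gene next to Cd4 whose product also binds MHC class II and dampens T cell activation. In mouse spleen, CD8 alpha with DEC205 (Ly75) marks the cross-presenting cDC1 lineage, CD4 marks a large share of ESAM-high cDC2, and plasmacytoid cells can carry CD8, CD4 and LAG3.

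All 4 genes lie on the plus or minus strand of chromosome 6 in GRCm38.p6, the assembly behind the mm10 build named in the submitters' processing notes. Cd8b1 (chr6:71322788-71337492, plus strand) and Cd8a (chr6:71373427-71379171, plus strand) are 35.9 kb apart. Cd4 (chr6:124864693-124888247, minus strand) and Lag3 (chr6:124904359-124912434, minus strand) are 16.1 kb apart. No other annotated gene overlapped any of them in that annotation. Etv6 (chr6:134035700-134270158) lies on the same chromosome. Promoter sequence was at hand for 1 of the 4 genes, Cd8a, the one with the largest fold change, from RefSeq on GRCm38.p6. It covers chr6:71373177-71373476 on the plus strand and is shown because ETV6 belongs to a family that binds GGAA, with each GGAA or its complement TTCC in capitals.
Cd8a: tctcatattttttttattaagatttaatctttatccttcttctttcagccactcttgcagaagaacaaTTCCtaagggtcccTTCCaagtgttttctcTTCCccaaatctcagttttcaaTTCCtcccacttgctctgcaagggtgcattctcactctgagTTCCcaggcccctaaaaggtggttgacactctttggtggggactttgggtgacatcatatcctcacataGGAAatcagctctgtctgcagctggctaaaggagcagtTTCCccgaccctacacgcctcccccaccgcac
GGAA was found 7 times when both strands were read, 5 times upstream on the opposite strand with starts between -182 and -89 bases from the gene start, once on the gene strand at -20 and once on the opposite strand at 19. Of 32851 promoters of the same length, 96% held at least 1 GGAA on either strand, the median was 3, and 8.02% held at least 7. The RUNX core TGTGGT was not found on either strand of this window, and 16.8% of the promoters held it. These matches are letters in a window and not measured sites.

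Library totals ran between 14434287 and 20709265 counts, 3 counts corresponded to a CPM (count scaled to the library total) of 0.143 to 0.228, and TMM factors lay between 0.913 and 1.1. Etv6 RNA, the check of the labels, was present in all libraries: Dec205 had 205 and 219 CPM in CKO and 337 and 375 CPM in WT libraries (log2 fold change -0.75 ± 0.1 SE, adjusted p = 0.000996, edgeR's quasi-likelihood test with Benjamini-Hochberg adjustment), and it was not called in pDC (adjusted p = 1), Esamlo (0.255) or Esamhi (0.812), where Etv6 was at 322 to 434 CPM in the CKO and 345 to 512 CPM in the WT libraries. Whole-gene counts do not show whether part of the gene was deleted. From the marker lists, of which none was specific to Esamlo, Ly75, Siglech and Esam were highest under their own label. Ly75 was at 143 and 157 CPM in Dec205 CKO and 203 and 238 CPM in Dec205 WT libraries, with 1.6 to 42.7 CPM in all other libraries. Siglech averaged 5820 CPM in CKO and 5550 CPM in WT pDC. Esam averaged 133 CPM in CKO and 147 CPM in WT Esamhi, against 32.8 CPM in Dec205 WT and 12.6 CPM in Esamlo WT. Members of the cDC2 list were mixed. Sirpa averaged 1340 CPM in Esamlo WT and 1400 CPM in Esamhi WT, against 452 CPM in pDC WT. Clec10a averaged 47.8 CPM in Esamlo WT and 0.866 CPM in Esamhi WT, against 244 CPM in pDC WT. Sums of whole lists did not all separate the subsets: the 10 cDC1 markers summed to 6790 to 7080 CPM in pDC libraries, where Irf8 alone averaged 6650 CPM in CKO and 6660 CPM in WT. Sex-linked genes split by genotype, with Xist at 114 to 355 CPM in the 8 CKO and 0 to 1.44 CPM in the 8 WT libraries, and Ddx3y at 0.0528 to 1.95 CPM in CKO and 104 to 222 CPM in WT. Genotype and this sex-linked pattern cannot be told apart in any comparison below.

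Cd8a, the gene of the CD8 alpha chain, was far lower in CKO than in WT libraries of Dec205 cells and about level in pDC. Dec205 CKO libraries had 69.2 and 70.7 CPM, and Dec205 WT libraries had 781 and 699 CPM. The mean was 69.9 ± 1.04 CPM in CKO and 740 ± 58.3 CPM in WT (SD, n = 2 each), a log2 fold change of -3.4 with an SE of 0.32, or 10.6-fold lower. Both CKO libraries thus lay far below both WT libraries while remaining well above the few CPM of Esamlo and Esamhi. In pDC, the CKO libraries had 179 and 159 CPM and the WT libraries 192 and 152 CPM, so the groups overlapped (log2 fold change -0.03, SE 0.29). Bulk libraries cannot separate fewer cells carrying a transcript from less transcript in each cell.

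Cd8a was low in both ESAM-sorted subsets and lower still in CKO. Esamlo had 1.72 and 4.12 CPM in CKO and 10.3 and 8.69 CPM in WT libraries (log2 fold change -1.73, SE 0.4, 3.32-fold lower). Esamhi had 0.881 and 1.58 CPM in CKO and 10.1 and 4.15 CPM in WT libraries (log2 fold change -2.49, SE 0.48, 5.63-fold lower). The groups did not overlap in either subset, but the values rest on few reads: 13 and 28 counts in Esamhi CKO against 189 and 80 in Esamhi WT libraries. Without the first Esamhi WT library, the log2 fold change was -1.72, and without the second Esamhi WT library it was -3.

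The order of the 8 group means of Cd8a differed between genotypes. Dec205 led the WT groups at 740 CPM, 4.29-fold above pDC at 172 CPM, while in CKO pDC led at 169 CPM, 2.42-fold above Dec205 at 69.9 CPM. After these came Esamlo WT at 9.49 CPM and Esamhi WT at 7.11 CPM, whose libraries overlapped, then Esamlo CKO at 2.92 CPM and Esamhi CKO at 1.23 CPM. The pDC CKO and WT groups were the only other neighbours in this order whose libraries overlapped.

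**Figure D1:**
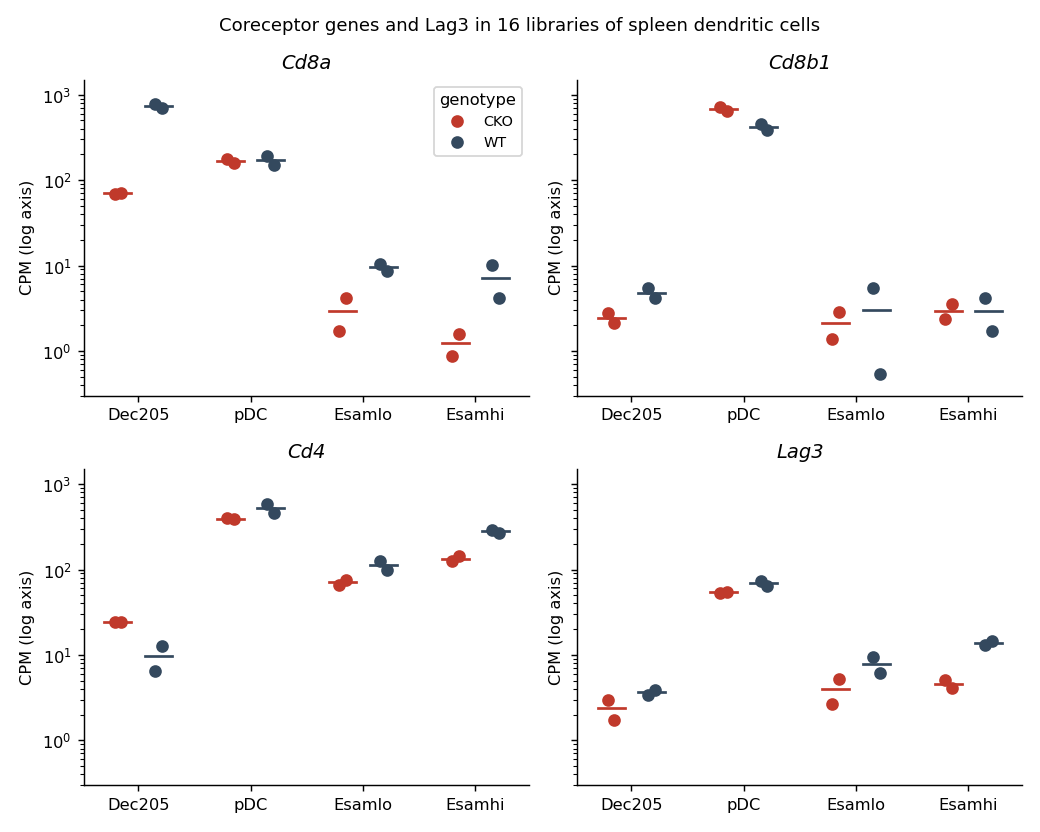
Level of Cd8a, Cd8b1, Cd4 and Lag3 in each library, in TMM-scaled CPM on a log axis, for the 4 subsets with CKO left of WT. Points are libraries and bars are group means (n = 2). Cd8a of Dec205 lies at 69.2 and 70.7 CPM in CKO and 781 and 699 CPM in WT libraries, Cd8b1 exceeds 6 CPM only in pDC, and Cd4 is higher in CKO than WT only in Dec205.

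Cd8b1, the gene of the CD8 beta chain, was a pDC transcript in these libraries. The pDC CKO libraries had 726 and 651 CPM and the pDC WT libraries 454 and 382 CPM, whereas the 12 libraries of the other subsets had 0.531 to 5.51 CPM. Both pDC CKO libraries stood above both WT libraries: the mean was 689 ± 53.3 CPM in CKO and 418 ± 50.8 CPM in WT (SD, n = 2 each), a log2 fold change of 0.72 with an SE of 0.41, or 1.65-fold higher. Cd8a in the same pDC libraries overlapped between genotypes.

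Outside pDC, Cd8b1 was near the level of the T cell genes described below. Dec205 had 2.77 and 2.14 CPM in CKO and 5.39 and 4.12 CPM in WT libraries (log2 fold change -0.93, SE 0.64), and these groups did not overlap. Esamlo had 1.39 and 2.88 CPM in CKO and 5.51 and 0.531 CPM in WT libraries, where the WT pair spanned 97 and 8 counts and enclosed the CKO pair (log2 fold change -0.58, SE 0.67). Without the first Esamlo WT library the sign turned, to 1.97. Esamhi had 2.37 and 3.55 CPM in CKO and 4.21 and 1.71 CPM in WT libraries, which overlapped (log2 fold change 0.02, SE 0.64). The 6 groups outside pDC followed each other in the order of means, from 4.76 CPM in Dec205 WT to 2.13 CPM in Esamlo CKO, with overlapping libraries at each step.

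The balance of the CD8 chains was taken from both genes within a library, where depth cancels. In pDC, the ratio of Cd8b1 to Cd8a counts was 4.06 and 4.1 in CKO and 2.36 and 2.51 in WT libraries. Cd8b1 made up 80.2% and 80.4% of the pair's counts in pDC CKO (exact binomial 95% intervals 79.6 to 80.8 and 79.7 to 81) and 70.2% and 71.5% in pDC WT libraries (69.4 to 71.1 and 70.6 to 72.4). These intervals, like the floors, cover counting error only, since PCR reads without molecular identifiers are not independent molecules. Per kilobase of the longest RefSeq transcript (3128 bases for Cd8a and 1483 bases for Cd8b1), the pDC ratio was 8.55 and 8.64 in CKO and 4.98 and 5.3 in WT libraries. On that scale the pDC means were 464 CPM per kb of Cd8b1 and 54 CPM per kb of Cd8a in CKO, and 282 CPM per kb of Cd8b1 and 55.1 CPM per kb of Cd8a in WT.

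Dec205 cells had the opposite balance, with Cd8a far in excess in both genotypes. The Cd8b1 to Cd8a count ratio was 0.04 and 0.0303 in Dec205 CKO and 0.0069 and 0.0059 in Dec205 WT libraries. Cd8b1 made up 3.85% and 2.94% of the pair in CKO (2.9 to 4.99 and 2.03 to 4.1) and 0.685% and 0.587% in WT libraries (0.535 to 0.863 and 0.449 to 0.753). In Esamhi the ratio was 2.69 and 2.25 in CKO and 0.418 and 0.412 in WT libraries, from 13 to 189 counts of each gene. In Esamlo it was 0.806 and 0.699 in CKO and 0.536 and 0.0611 in WT libraries. The CKO ratio thus lay above the WT ratio in every subset, with the numerator outside pDC at the level of the CD3 genes.

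**Figure D2:**
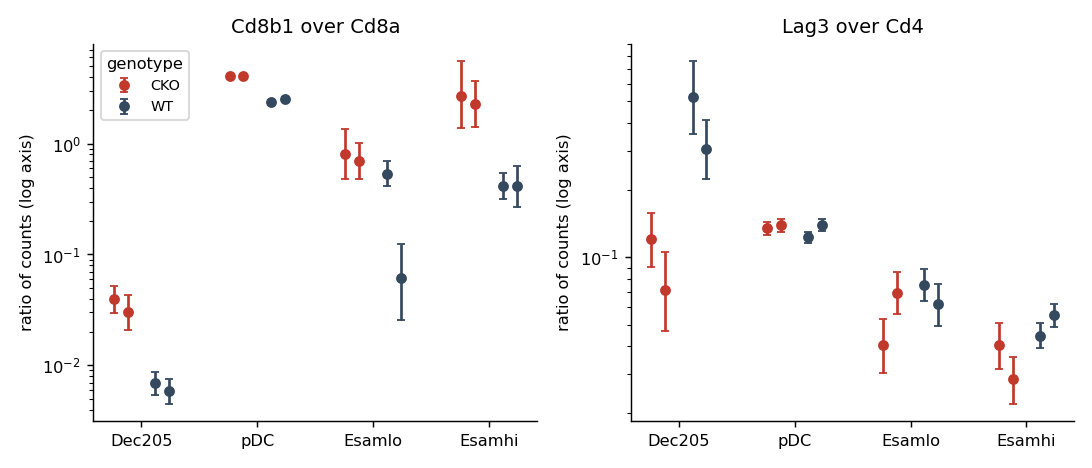
Ratio of counts of Cd8b1 over Cd8a (left) and Lag3 over Cd4 (right) in each library, on log axes, for the 4 subsets with CKO left of WT. Error bars are exact binomial 95% intervals for counting error. The Cd8b1 ratio in pDC is 4.06 and 4.1 in CKO and 2.36 and 2.51 in WT libraries, and the Lag3 ratio in pDC is 0.135 and 0.139 in CKO and 0.123 and 0.14 in WT libraries.

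Cd4, the MHC class II coreceptor gene, was lower in CKO in pDC, Esamlo and Esamhi and higher in CKO in Dec205. Esamhi had 126 and 143 CPM in CKO and 293 and 266 CPM in WT libraries, with means of 134 ± 12.2 CPM in CKO and 280 ± 18.6 CPM in WT (SD, n = 2 each), a log2 fold change of -1.06 with an SE of 0.2. Esamlo had 66.4 and 74.8 CPM in CKO and 125 and 100 CPM in WT libraries (log2 fold change -0.68, SE 0.2). In pDC the values were 397 and 388 CPM in CKO and 592 and 465 CPM in WT libraries (log2 fold change -0.43, SE 0.2). Every CKO library of these 3 subsets was below both WT libraries of its subset.

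In Dec205, by contrast, Cd4 was at 24.6 and 24.4 CPM in CKO and at 6.53 and 12.8 CPM in WT libraries. The log2 fold change was 1.33 with an SE of 0.23, or 2.52-fold higher, and the groups did not overlap. The WT pair was spread more widely than the CKO pair: without the first Dec205 WT library the log2 fold change was 0.95, and without the second it was 1.91. The Dec205 CKO level remained below the lowest Esamlo CKO library. With Cd8a lower and Cd4 higher, the ratio of Cd4 to Cd8a counts in Dec205 was 0.356 and 0.346 in CKO and 0.00835 and 0.0183 in WT libraries. No pair of neighbours in the order of the 8 group means of Cd4 overlapped, from pDC WT at 528 CPM, pDC CKO at 393 CPM, Esamhi WT at 280 CPM, Esamhi CKO at 134 CPM, Esamlo WT at 113 CPM and Esamlo CKO at 70.6 CPM to Dec205 CKO at 24.5 CPM and Dec205 WT at 9.65 CPM.

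Markers of other cell types were read beside the Dec205 values of Cd8a and Cd4. The summed level of the 10 pDC markers was 493 and 435 CPM in Dec205 CKO and 229 and 247 CPM in Dec205 WT libraries, against 15100 to 17500 CPM in pDC libraries. Siglech, a defining pDC receptor, was at 4.46 and 2.66 CPM in Dec205 CKO and 1.75 and 1.01 CPM in Dec205 WT libraries (log2 fold change 1.41, SE 0.3, edgeR adjusted p = 0.0151). The 9 B cell markers read here summed to 747 and 422 CPM in Dec205 CKO and 213 and 221 CPM in Dec205 WT libraries, and the 18 T cell markers to 169 and 121 CPM in CKO and 139 and 99.7 CPM in WT, where Themis and Ubash3a were at 0. The 11 NK cell markers summed to 85.6 and 32.5 CPM in CKO and 24.7 and 38.3 CPM in WT, and the 11 macrophage markers to 137 and 155 CPM in CKO and 233 and 263 CPM in WT. The 10 cDC1 markers summed to 8210 and 9490 CPM in CKO and 7710 and 7500 CPM in WT, and none was called. Irf8 averaged 4210 CPM of the sum in CKO and 3720 CPM in WT. Xcr1, a cDC1 chemokine receptor, averaged 1670 CPM in CKO and 1250 CPM in WT (adjusted p = 0.499). Cadm1 (496 CPM in CKO, 688 CPM in WT), Ly75 (150 and 220 CPM) and Batf3 (102 and 148 CPM) were lower in CKO, and the other listed cDC1 genes were higher. The 9 cDC2 markers summed to 108 and 63.5 CPM in CKO and 77 and 113 CPM in WT. Of the 10 pDC markers, Siglech, Ly6d, Cox6a2, Tcf4 and Runx2 rose in Dec205 CKO, Runx2 to a mean of 135 CPM, against 15.2 CPM in WT. The other 5 were not called, and of them Ccr9 (log2 fold change -0.77) and Lair1 (-0.14) were lower in CKO. Ms4a1, Cd22 and Blk of these B cell markers rose, and 6 were not called. Klrb1c of the NK cell markers rose to 0.615 and 0.324 CPM, near the floor, from 0 in WT. The other 8 tested were not called, and Nkg7 (-2.22) and Gzma (-3.49) were lower in CKO. Among the ESAM-high and cDC2 markers, Itgam rose, Esam fell to 7.44 CPM in CKO, against 32.8 CPM in WT (adjusted p = 4.43e-05), and Sirpa to 25.2 CPM in CKO, against 57.4 CPM in WT (adjusted p = 0.0183). The part of these cell types in the Cd4 and Cd8a values was not tested. Without the first Dec205 CKO library the log2 fold change was -3.38 for Cd8a and 1.34 for Cd4. The second CKO library still had B cell (422 CPM) and pDC marker sums (435 CPM) above both WT libraries. Leaving out the first therefore does not test the part of these cells.

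Lag3, the inhibitory neighbour of Cd4, was a pDC transcript with lower levels in the conventional subsets. The pDC libraries had 53.7 and 53.8 CPM in CKO and 73 and 64.9 CPM in WT (log2 fold change -0.36, SE 0.29). Esamhi had 5.09 and 4.06 CPM in CKO and 13 and 14.6 CPM in WT libraries, a log2 fold change of -1.6 with an SE of 0.32, or 3.03-fold lower. Its libraries did not overlap between genotypes in either subset.

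Esamlo had 2.68 and 5.19 CPM of Lag3 in CKO and 9.43 and 6.17 CPM in WT libraries (log2 fold change -1, SE 0.32). Dec205 had 2.97 and 1.75 CPM in CKO and 3.41 and 3.92 CPM in WT libraries (log2 fold change -0.62, SE 0.35), from 27 to 58 counts. The CKO libraries lay below the WT libraries in each of these subsets too. Among the 4 genes, only Lag3 was lower in CKO without overlap in all 4 subsets. Over all tested genes, 41.2% (Dec205), 37.3% (pDC), 44.2% (Esamlo) and 44.2% (Esamhi) did not overlap, in either direction. The share of genes lower in all 4 subsets was not counted, and nothing is read from the pattern of Lag3. In the order of group means, pDC WT at 68.9 CPM and pDC CKO at 53.8 CPM led, followed by Esamhi WT at 13.8 CPM and Esamlo WT at 7.8 CPM. Esamhi CKO at 4.57 CPM, Esamlo CKO at 3.94 CPM and Dec205 WT at 3.67 CPM overlapped with their neighbours, and Dec205 CKO came last at 2.36 CPM.

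The ratio of Lag3 to Cd4 counts overlapped between genotypes in pDC and Esamlo and did not in Esamhi and Dec205. It was 0.135 and 0.139 in pDC CKO and 0.123 and 0.14 in pDC WT libraries, and 0.0403 and 0.0695 in Esamlo CKO and 0.0754 and 0.0616 in Esamlo WT libraries. In Esamhi it was 0.0405 and 0.0284 in CKO and 0.0446 and 0.0549 in WT libraries. In Dec205 it was 0.121 and 0.0716 in CKO and 0.523 and 0.307 in WT libraries, where Cd4 and Lag3 differed in opposite directions. Per kilobase (3108 bases for Cd4 and 2001 bases for Lag3), Cd4 exceeded Lag3 in every group, by means of 126 against 26.9 CPM per kb in pDC CKO and 170 against 34.4 CPM per kb in pDC WT.

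**Figure D3:**
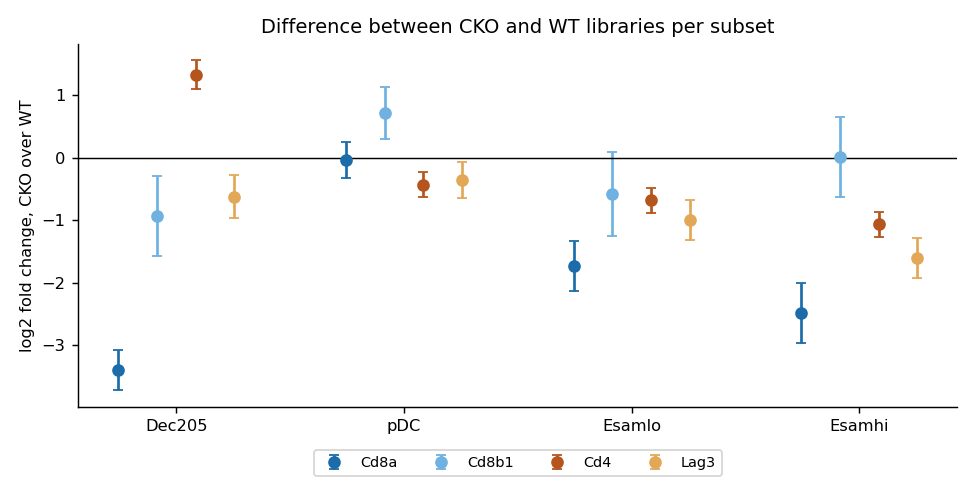
Log2 fold change of CKO over WT for each gene in each subset, from the fit over 16 libraries (points, with SE as bars, n = 2 libraries per group). Cd8a lies at -3.4 in Dec205 and -0.03 in pDC, Cd8b1 at 0.72 in pDC, and Cd4 at 1.33 in Dec205 and -1.06 in Esamhi.

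The number of the 4 genes whose CKO and WT libraries did not overlap was 4 in Dec205 (3 lower in CKO, 1 higher), 3 in pDC (2 lower, 1 higher), 3 in Esamlo (all lower) and 3 in Esamhi (all lower). Over all tested genes, the CKO and WT libraries did not overlap for 41.2% (Dec205), 37.3% (pDC), 44.2% (Esamlo) and 44.2% (Esamhi). By adjusted p, edgeR called 6.78% for Dec205, 1.85% for pDC, 0.551% for Esamlo and 0.877% for Esamhi, and 2.44% when unequal CKO effects among subsets were tested jointly. These shares are given as background, and nothing is read from them because the 4 genes were chosen by the same values. The 4 genes had a median log2 fold change of -0.78 for Dec205, -0.2 for pDC, -0.84 for Esamlo and -1.33 for Esamhi, beside 0, 0.007, 0.006 and 0 over all tested genes.

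The CD3 genes, which T cells need to assemble their receptor, were low in every library and served as a check for T cells. Cd3e ranged between 1.17 and 8.71 CPM (18 to 170 counts) and Cd3g between 1.23 and 6.61 CPM (23 to 129 counts) over the 16 libraries. In Dec205, Cd3e was at 8.71 and 1.17 CPM in CKO and 5.54 and 5.21 CPM in WT libraries (adjusted p = 0.98), and Cd3g at 6.61 and 2.85 CPM in CKO and 2.35 and 2.43 CPM in WT libraries (adjusted p = 0.447). In pDC, Cd3e averaged 6.31 CPM in CKO and 5.67 CPM in WT (adjusted p = 1), and Cd3g 2.86 CPM in CKO and 2.06 CPM in WT (adjusted p = 0.944). Neither gene was called in Esamlo or Esamhi, with adjusted p of 0.992 to 1. Cd8a in Dec205 and pDC, Cd8b1 in pDC and Cd4 in all subsets but Dec205 WT were above the highest Cd3e or Cd3g library by every library. Cd8b1 outside pDC, Cd8a in the ESAM-sorted subsets and Lag3 outside pDC, Esamhi WT aside, lay within or near the CD3 range, and the part of T cells in those values was not tested. In Esamlo WT, where the first library had 97 and the second 8 Cd8b1 counts, 14 of the 18 T cell markers were higher in the first library and 4 (Cd2, Cd247, Cd6 and Trat1) were lower, and the 18 summed to 142 CPM in the first and 109 CPM in the second.

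**Figure D4:**
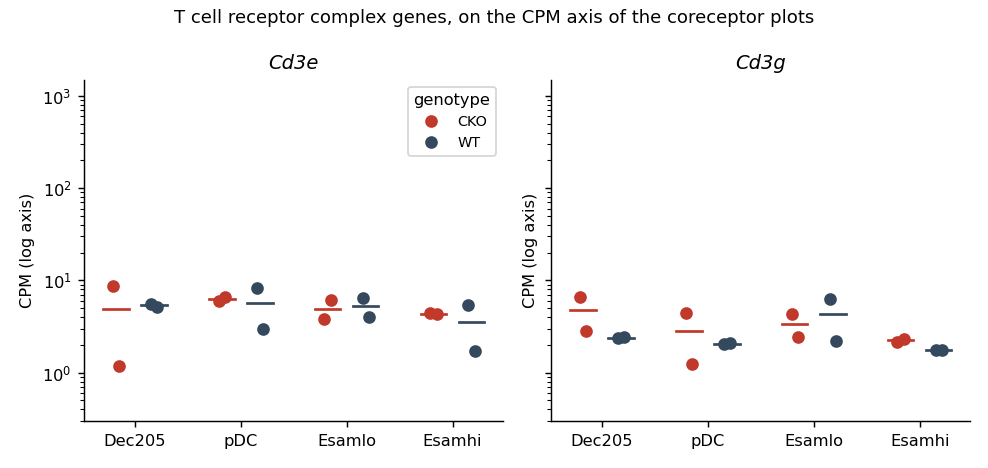
Level of Cd3e and Cd3g in each library, in TMM-scaled CPM on the same log axis as the plot of the 4 coreceptor genes, for the 4 subsets with CKO left of WT. Points are libraries and bars are group means (n = 2). Cd3e stays between 1.17 and 8.71 CPM and Cd3g between 1.23 and 6.61 CPM.

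Of the list of 18 T cell genes, 2 rose and 1 fell in Dec205 CKO by edgeR's adjusted p under 0.05, and none was called in pDC, Esamlo or Esamhi. Over all tested genes, 6.78% were called for Dec205, 1.85% for pDC, 0.551% for Esamlo and 0.877% for Esamhi. Cd2, an adhesion receptor also carried by other lymphocytes and some dendritic cells, rose 4.73-fold to 53.4 and 24.5 CPM in CKO, against 9.86 and 6.63 CPM in WT (adjusted p = 0.0186). That call was lost without the first Dec205 CKO library (adjusted p = 0.111). Cd5, a scavenger-like receptor, rose 2.68-fold to 4.92 and 7.26 CPM in CKO, against 2.58 and 1.96 CPM in WT (adjusted p = 0.0152). Bcl11b, a T lineage transcription factor, fell to 0.103 and 0 CPM in CKO, under the floor of 3 counts, against 2.2 and 0.879 CPM in WT (adjusted p = 0.00918). In the other subsets, 2, 1 and 0 of the 18 had an unadjusted p under 0.05 in pDC, Esamlo and Esamhi by edgeR, and DESeq2 called 1, 0 and 0. Across Dec205, pDC, Esamlo and Esamhi the list median on the log2 fold change scale was 0.09, 0.37, -0.43 and 0.21. Cd28, a costimulatory receptor, and Tcf7, a T cell and progenitor factor, had the highest means of the list over the WT groups, with Cd28 at 110 CPM in CKO and 58.8 CPM in WT pDC (adjusted p = 0.402) and Tcf7 at 205 CPM in CKO and 168 CPM in WT Esamhi (adjusted p = 1).

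The kinases and phosphatases that work with coreceptors in T cells were mostly not called: of the 11 read here, 1 fell in pDC, and none was called in the other subsets. For pDC, 1.85% of all tested genes were called. Ptpn22, a phosphatase that restrains LCK, fell to 4.97 and 4.39 CPM in pDC CKO, against 9.88 and 9.4 CPM in pDC WT (adjusted p = 0.00108). In Esamlo, Ptpn22 averaged 170 CPM in CKO and 215 CPM in WT (adjusted p = 0.302). Lck, the kinase bound by CD4 and CD8 in T cells, was at 7.46 CPM in CKO and 9.01 CPM in WT Esamlo (adjusted p = 0.977) and at 6.35 CPM in CKO and 6.41 CPM in WT Esamhi (adjusted p = 1). The most abundant of the list, the phosphatase CD45 gene Ptprc, averaged 859 CPM in CKO and 929 CPM in WT Dec205 (adjusted p = 0.551). Of the 11, the counts with an unadjusted p under 0.05 were 0 in Dec205, 1 in Esamlo and 1 in Esamhi, and DESeq2 called 0 in each.

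Of 13 genes for the ligands of CD8, CD4 and LAG3 and for the enzymes that shed LAG3, 12 were tested. H2-K1, an MHC class I heavy chain that CD8 binds, rose 1.26-fold in Esamhi to 3750 and 3620 CPM in CKO, against 2740 and 3100 CPM in WT (adjusted p = 0.0494). That call held in only 3 of 22 other settings, and MHC class I genes are near-identical copies whose reads the counting could split. No other listed ligand gene was called by edgeR in any subset. H2-Ab1, a chain of the class II molecule that CD4 and LAG3 bind and the most abundant of the list, averaged 21600 CPM in CKO and 19900 CPM in WT Dec205 (adjusted p = 0.514). Fgl1, a LAG3 ligand made by liver, had no count in any library and did not pass the filter. The unadjusted edgeR p was under 0.05 for 1, 0, 1 and 5 of the 12 in Dec205, pDC, Esamlo and Esamhi, and DESeq2 called 0, 0, 1 and 2, with B2m, the light chain of MHC class I, beside H2-K1 in Esamhi.

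Of 18 factors known to control Cd8 or Cd4 in T cells, edgeR called 1 higher and 3 lower in Dec205 CKO, where 6.78% of all tested genes were called. It called 0 in pDC, Esamlo and Esamhi, where the shares over all genes were 1.85%, 0.551% and 0.877%, and the difference between subsets in these counts was not tested. Runx2, a RUNX factor abundant in pDC, rose 8.8-fold to 111 and 159 CPM in Dec205 CKO, against 11 and 19.5 CPM in Dec205 WT (adjusted p = 1.25e-05). In pDC, Runx2 was at 633 and 699 CPM in CKO and 705 and 667 CPM in WT libraries (adjusted p = 1), and over the 4 subsets jointly the adjusted p for unequal CKO effects was 0.000775. Runx1, which represses Cd4 in early thymocytes, fell to 46.2 and 61.7 CPM in Dec205 CKO, against 81.3 and 101 CPM in Dec205 WT (adjusted p = 0.00768). Patz1, a zinc finger factor that acts on CD8 expression in thymocytes, fell to 36.2 and 42.1 CPM in CKO, against 52.1 and 59.8 CPM in WT (adjusted p = 0.0385). Bcl11b, which is on this list too, was the third that fell. Patz1 passed in 7 of 22 other settings, Runx1 in 20 and Runx2 in 22.

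Runx3, the RUNX factor that silences Cd4 and acts with Cd8 enhancers in T cells, was not called in any subset, at 121 CPM in CKO and 134 CPM in WT Dec205 (log2 fold change -0.15, adjusted p = 0.682). Zbtb7b (ThPOK), the CD4 lineage factor of T cells, averaged 21.8 CPM in CKO and 12.2 CPM in WT Dec205 (adjusted p = 0.0744). Ikzf1 (Ikaros), the most abundant listed factor by its mean over the WT groups, was at 113 CPM in CKO and 99 CPM in WT Dec205 (adjusted p = 0.322). The list median was 0.09, 0.03, 0.04 and 0.02 on the log2 fold change scale in Dec205, pDC, Esamlo and Esamhi. Outside Dec205, 1, 1 and 2 of the 18 had an unadjusted p under 0.05 in pDC, Esamlo and Esamhi, and DESeq2 called 1 in each.

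Of 16 factors tied to the CD8a+ and CD4+ spleen lineages, 2 rose and 1 fell in Dec205 CKO and 2 rose in Esamhi CKO. The shares called over all tested genes were 6.78% for Dec205 and 0.877% for Esamhi. Tcf4, the E protein that sets pDC identity, rose to 88.3 and 62 CPM in Dec205 CKO, against 42.4 and 30.1 CPM in Dec205 WT (adjusted p = 0.0028), and Spib, an ETS factor of pDC and B cells, rose to 76.1 and 52.6 CPM in CKO, against 43 and 25.9 CPM in WT (adjusted p = 0.0394). The Spib call was lost without the first Dec205 CKO library (adjusted p = 0.218). Relb, an NF-kappa-B subunit needed by CD4+ spleen dendritic cells, fell to 205 and 220 CPM in Dec205 CKO, against 394 and 369 CPM in Dec205 WT (adjusted p = 0.000383). In Esamhi, Irf8, the factor that directs cDC1, rose to 152 and 126 CPM in CKO, against 83.1 and 76.1 CPM in WT (adjusted p = 0.00149), and Nfil3, which acts upstream in cDC1 development, rose to 305 and 311 CPM in CKO, against 160 and 200 CPM in WT (adjusted p = 0.0101). Irf8 in Dec205, where it is abundant, was at 4210 CPM in CKO and 3720 CPM in WT (adjusted p = 0.309). None of the 16 was called in pDC or Esamlo, where 1 and 3 had an unadjusted p under 0.05 and DESeq2 called 0 and 2.

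Among 13 other inhibitory receptors and their ligands, the calls were in pDC, as 2 higher and 1 lower in CKO, where 1.85% of all tested genes were called. Pdcd1 (PD-1) rose 3.83-fold to 29.9 and 33 CPM in CKO, against 7.96 and 8.43 CPM in WT pDC (adjusted p = 0.00941). Btla, a receptor for the TNF receptor family member HVEM, rose 3.01-fold to 168 and 158 CPM in CKO, against 46.5 and 61.7 CPM in WT pDC (adjusted p = 0.000102). Cd244, a SLAM family receptor, fell to 82.4 and 67.7 CPM in CKO, against 128 and 145 CPM in WT pDC (adjusted p = 0.0013). Lag3 in the same pDC libraries was lower in CKO by a log2 fold change of -0.36, so these receptors did not share a direction. Havcr2 (TIM-3), the most abundant of the list by its mean over the WT groups, averaged 622 CPM in CKO and 843 CPM in WT Dec205 (adjusted p = 0.272), and Cd274 (PD-L1) 736 CPM in CKO and 509 CPM in WT Esamhi (adjusted p = 0.0533). In Dec205, Esamlo and Esamhi the unadjusted p was under 0.05 for 4, 3 and 4 of the 13, and DESeq2 called 3, 1 and 2.

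Counting each gene once, the 6 lists as read here held 83 genes, of which 82 were tested. Of these, edgeR called 9 for Dec205, 4 for pDC, 0 for Esamlo and 3 for Esamhi, and 10 in the joint test. Over all tested genes it called 6.78% for Dec205, 1.85% for pDC, 0.551% for Esamlo and 0.877% for Esamhi, and 2.44% in the joint test. The counts were not tested against these shares, since the lists were chosen with earlier results known. In Esamlo, 10 of the 82 had an unadjusted p under 0.05 and DESeq2 called 5.

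The genes around both coreceptor pairs were read next, since each pair lies within one neighbourhood. Of the 14 other protein-coding genes whose start lay within 100 kb of Cd4 or Lag3, 12 were tested and none was called in any subset. The lowest adjusted p was 0.0564, for Gpr162, an orphan receptor gene, in Dec205 (log2 fold change 1.67, SE 0.48). These 12 had a median log2 fold change of 0.02 for Dec205, 0.01 for pDC, 0.06 for Esamlo and -0.12 for Esamhi. By edgeR, 3, 1, 1 and 1 of them had an unadjusted p under 0.05 in Dec205, pDC, Esamlo and Esamhi, and DESeq2 called 2, 1, 0 and 0. Around Cd8b1 and Cd8a, 3 of 4 neighbours were in the table and tested, and none was called. The lowest adjusted p there was 0.145, for Rmnd5a, a ubiquitin ligase subunit gene, in Dec205 (log2 fold change -0.31, SE 0.12). It was the only 1 of the 3 with an unadjusted p under 0.05 in any subset, and DESeq2 called none. Krcc1, another of the 3, had log2 fold changes from -0.16 to 0.05.

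**Figure D5:**
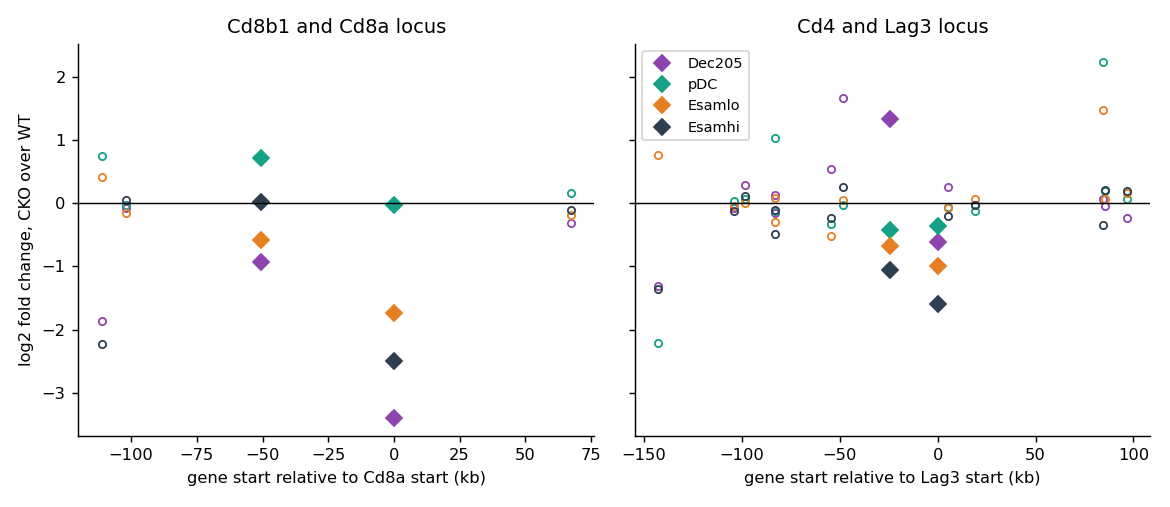
Log2 fold change of CKO over WT against the distance of each gene start from that of Cd8a (left) or Lag3 (right), in kilobases. Filled diamonds are the 4 coreceptor genes and open circles other protein-coding genes whose start lies within 100 kb of either gene of the pair, coloured by subset. Cd8a reaches -3.4 in Dec205, while Rmnd5a, on its right, has -0.31.

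Over the 16 libraries, the log2 CPM of Cd8b1 and Lag3 correlated at Pearson r = 0.879 and that of Cd4 and Lag3 at 0.826, while Cd8a had r = 0.551 with Cd8b1 and -0.235 with Cd4. These are descriptions of 16 libraries that fall into 4 subsets, and much of each value reflects which subset is high. The other genes closest to Cd8a by this measure were Cpne2 at 0.966, Ddost at 0.958, Morf4l2 and Sept9 at 0.951 and Mlec at 0.948. Cpne2 encodes a calcium-binding copine, and Ddost a subunit of the oligosaccharyltransferase. For Cd8b1 they were Tmem63a at 0.982, Slc39a11, a zinc transporter gene, at 0.98, Klk1b5 at 0.979, and Klk1b21 and Dntt, the terminal transferase gene, at 0.978, where the kallikrein genes Klk1b5 and Klk1b21 are close copies whose reads may be split. For Cd4 they were Spns3 at 0.967, Bcl11a, a factor needed for pDC and B cells, and Ccdc82 at 0.966, Abhd6, a lipase gene, at 0.964 and Hdac10, a deacetylase gene, at 0.963. For Lag3 they were Emp3 at 0.971, Pik3ip1, an inhibitor of PI3 kinase, and Hmgcs1, a cholesterol synthesis enzyme, at 0.96, Ptprf, a receptor phosphatase, at 0.958 and Rgs18, a regulator of G protein signalling, at 0.956. No gene appeared in the first 5 of more than 1 of the 4.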

How the data were processed

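RNA of sorted spleen dendritic cells was measured in 16 libraries (SMART-seq v4, per the labels' protocols). The authors deposited raw counts for each gene, in 1 table. Per the submitters' processing notes, bcl2fastq, Trimmomatic 0.36, Bowtie2 2.2.9 and the mm10 build were used. The counting tool, annotation and strand setting are not stated there or in the labels. SMART-seq v4 does not mark strand. Totals of 14434287 to 20709265 counts set the precision.

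Samples were grouped by the subset and genotype labels. Counts were fitted with edgeR 4.0.16 in R 4.3.3 (filterByExpr, TMM, robust quasi-likelihood fit, 1 coefficient per group, 8 residual degrees of freedom), with Benjamini-Hochberg adjustment over 13790 genes and calls under 0.05. The SE is the log2 fold change divided by the square root of F. CPM used TMM-scaled totals, and log2 CPM for correlations a prior count of 2. Alternatives were other scalings, no filter, DESeq2 1.42.0, a replicate block, subset-only fits, a larger prior count and leaving out each library.

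The 4 genes and all lists were chosen with earlier results of these data known. Named beside them are Cd3e, Cd3g, Etv6, every called gene of a list with its most abundant members, neighbours within 100 kb, and the 5 genes most correlated with each. Marker genes named beside Dec205 values, Lck and Zbtb7b were chosen after their values were seen. Some listed genes are not reported here and are left out of the list counts and sums. Positions and lengths come from RefSeq and GENCODE tables of GRCm38.p6, matched by Entrez and Ensembl gene identifiers. The promoter and the strands of neighbours were matched by gene symbol.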

Additional observations from a re-analysis of the deposited data

Results flagged for a closer look

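Cd4 differed between CKO and WT libraries in opposite directions in different subsets: its log2 fold change was 1.33 in Dec205, where both CKO libraries lay above both WT libraries, and -0.43 in pDC, -0.68 in Esamlo and -1.06 in Esamhi, where both lay below. Cd8b1 was likewise higher in CKO in pDC (0.72) and lower in Dec205 (-0.93), the second from 33 to 71 counts per library. These differences between subsets were not tested.

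For 10 genes of the pathway lists, edgeR's joint test over the 4 subsets (2.44% of all tested genes called) gave a CKO effect that differed between subsets. The adjusted p was 0.000775 for Runx2, 0.0031 for Btla, 0.00533 for Relb, 0.0122 for Ptpn22, 0.017 for Cd274, 0.0203 for Nfil3, 0.0241 for Pdcd1, 0.0254 for Irf8, 0.0283 for Tcf4 and 0.0443 for H2-K1. Runx2 had a log2 fold change of 3.14 for Dec205, -0.04 for pDC, 0.7 for Esamlo and 0.6 for Esamhi. Btla had 0.33 for Dec205, 1.59 for pDC, 0.03 for Esamlo and 0.1 for Esamhi. Cd274 was not called in any single subset, with -0.37 for Dec205, -0.16 for pDC, 0.44 for Esamlo and 0.53 for Esamhi.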

How the results depend on the processing

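Under 23 other settings, the log2 fold change of Cd8a in Dec205 stayed between -3.48 and -3.31 and that of Cd8b1 in pDC between 0.59 and 0.85. Leaving out 1 library turned the sign of Cd8b1 in Esamlo (-1.39 to 1.97, with 1.97 without the first Esamlo WT library), and of Cd8b1 in Esamhi (-0.49 to 0.8) and Cd8a in pDC (-0.2 to 0.16), both near 0 with all libraries; scaling by library size only gave -0.02 for Cd8b1 in Esamhi. Leaving out 1 library also gave -2.47 to -1.2 for Cd8a in Esamlo, -3 to -1.72 for Cd8a in Esamhi, 0.95 to 1.91 for Cd4 in Dec205, -1.06 to -0.3 for Lag3 in Dec205 and -1.55 to -0.59 for Lag3 in Esamlo. Genes called numbered 935 for Dec205, 255 for pDC, 76 for Esamlo, 121 for Esamhi and 337 in the joint test. DESeq2 called 1707, 549, 250, 305 and 1082. Fitting only the 4 libraries of a subset gave 136, 91, 126 and 578 in the same order of subsets, from 2 residual degrees of freedom. Leaving out 1 library gave 585 to 1328 in Dec205 (1328 without the first and 585 without the second Dec205 WT library), 176 to 286 in pDC, 28 to 107 in Esamlo (28 without the second Esamlo WT library), 44 to 153 in Esamhi (44 without the first Esamhi CKO library) and 219 to 532 in the joint test (532 without the first Dec205 WT, 219 without the second Esamhi CKO library). A group left with 1 library is assumed to vary like the others. Scaling by library size only moved the share of Dec205 calls that were higher in CKO to 60%, from 50.7%, and DESeq2 moved it to 67.2%, from 79.6%, in pDC and to 68.8%, from 82.9%, in Esamlo. No scaling moved the median of all genes by more than 0.032. The cause was not tested. Of the named calls on the pathway lists and of Etv6, Runx2, Irf8, Relb, Btla and Cd244 passed in 22 of 22 settings. Calls of marker genes outside the pathway lists, among them Siglech, Esam, Sirpa, Cox6a2 and Ms4a1, were not checked under the other settings. Subset-only fits lost Bcl11b, Ptpn22, Tcf4, Runx1, Cd2, Cd5, Spib, Patz1, H2-K1 and Etv6 (adjusted p = 0.053). Without 1 of their own libraries, Cd2, Cd5, Spib, Patz1, H2-K1, Nfil3, Pdcd1 and Runx1 were lost. Within a subset, same-numbered CKO and WT libraries did not deviate together. The correlation of their replicate differences was 0.017 for Dec205, 0.008 for pDC, -0.007 for Esamlo and -0.069 for Esamhi. The replicate block gave 971, 260, 86, 136 and 343 calls. Whether same-numbered libraries of different subsets share an animal is not said and was not tested, and the fit treats them as independent. B cell marker sums were higher in the first than in the second CKO library of every subset, and mixed in WT. With 2 libraries per group, counts of 8 to 189 for Cd8b1 outside pDC and Cd8a in the ESAM-sorted subsets limit those values most.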

Other observations

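Cpne2, Ddost, Sept9 and Mlec, among the genes closest to Cd8a over 16 libraries, were not among the closest 5 by the 8 group means, while Morf4l2 was, at r = 0.979. For Cd8b1 the genes in both lists were Slc39a11 and Klk1b5, for Cd4 Ccdc82, and for Lag3 Emp3 and Hmgcs1.

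Cox6a2, a cytochrome oxidase subunit gene and 1 of the 10 pDC markers, was near absent in WT libraries of Dec205 and of the ESAM-sorted subsets and higher in CKO. Dec205 had 9.64 and 2.72 CPM in CKO and 0.0759 and 0.0676 CPM in WT libraries (log2 fold change 6.34, SE 0.93, edgeR adjusted p = 0.00142). In pDC, Cox6a2 was at 620 and 779 CPM in CKO and 272 and 278 CPM in WT libraries (edgeR adjusted p = 0.0592). Esamlo had 20.2 and 12.5 CPM in CKO and 0.398 and 0.664 CPM in WT libraries (log2 fold change 4.96, SE 0.56, edgeR adjusted p = 0.000919). Esamhi had 9.29 and 7.38 CPM in CKO and 0.479 and 0.622 CPM in WT libraries (log2 fold change 3.89, SE 0.57, adjusted p = 0.00504). Siglech in the ESAM-sorted subsets was at 4.06 CPM in CKO and 6.33 CPM in WT Esamlo (adjusted p = 0.402) and at 1.17 CPM in CKO and 0.814 CPM in WT Esamhi (adjusted p = 0.976). In each of these subsets, 9 of the 10 pDC markers were not called. The list median log2 fold change was 0.01 in Esamlo and 0.57 in Esamhi. The list summed to 458 and 441 CPM in Esamlo CKO and 412 and 388 CPM in Esamlo WT libraries. In Esamhi the sums were 381 and 384 CPM in CKO and 367 and 373 CPM in WT libraries. The part of pDC in these values was not tested. Cox6a2 was chosen after its values were seen.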
